A study of Homo sapiens with 12 samples.

Results

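The guides described here target genes that surround CCNE1 on human chromosome 19, in bands 19q12 to q13. They were chosen by the position in the guide names, with a start between 28000000 and 36000000, and the guides of CCNE1, UQCRFS1 and CEP89 were set aside. This gave 215 of the 71090 guides of the library and 54 of its 18053 genes. The first of these guides started at 30018138 and the last at 35981308. No source used here names the genome build of these positions, so they are printed as the library gives them.

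The data are pooled knockout screens with the Toronto Knockout library version 3, in which each cell carries Cas9 and 1 guide and the guides of the surviving cells are counted. HCC1806 is a triple-negative breast cancer line that the study treats as CCNE1-amplified, and MIA PaCa-2 is a pancreatic cancer line. HCC1806 was used in 2 screens. The INX-315 screen of HCC1806 held 1 start library, 2 DMSO libraries, DMSO 1 and DMSO 2, and 2 libraries grown in 500 nM of the CDK2 inhibitor INX-315. The palbociclib screen of HCC1806 held 1 start, 1 DMSO and 1 library grown in 500 nM of the CDK4/6 inhibitor palbociclib. The MIA PaCa-2 screen held 1 start, 1 DMSO, 1 library in 500 nM INX-315 and 1 in 250 nM palbociclib. By the labels, HCC1806 was sampled at passage 0 for its start libraries, MIA PaCa-2 at passage 1, and all other libraries came from passage 8. All cells had been infected with the same guide library and selected with puromycin. Each line was screened separately, so the line and the screen cannot be told apart.

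CCNE1 encodes cyclin E1, the partner through which CDK2 drives entry into S phase, and the segment of chromosome 19 that carries it is copied many times over in a share of breast, ovarian and other cancers. Cas9 cuts every copy of its target. Where a segment is present in many copies, a single guide makes many breaks, and cells can be lost from a screen whether or not the targeted gene is needed. Guides to the genes beside an amplified gene therefore serve as a comparison for the guides against that gene itself. Copy number was not measured in these data.

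A guide's change from start is the difference in log2 of counts per 1000000 (CPM) plus 0.5 between a library and the start library of its screen. The value of a gene is the mean over its guides, given with the SD over those guides, which share a target and are not replicates of a condition. Library totals ran from 24946956 to 58875726 counts. A count of 0 allows up to 3 counts, or 0.051 to 0.120 CPM over the 12 libraries, and covers counting error only because the PCR reads carry no molecular identifiers. DMSO 1 of HCC1806 stood apart. Its counts correlated with those of DMSO 2 at 0.543 over all guides and at 0.46 over the guides around CCNE1, against 0.964 and 0.949 for the pair of INX-315 libraries. It also held 38 guides of the region with fewer than 30 counts, against 4 in DMSO 2, so each value is given for every library.

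In median, the guides closest to CCNE1 stood lower than the library as a whole in every passaged HCC1806 library and close to it in MIA PaCa-2 with DMSO. No single guide of this set was called in the test of the line difference given further on, so the pattern is one of medians and counts. Within 0.5 Mb of the middle of the CCNE1 guides lie 20 guides of 5 genes, VSTM2B, POP4, PLEKHF1 and C19orf12 on one side and URI1 on the other. This distance was an alternative to the planned 1 Mb and gave a larger difference between the lines. POP4 and URI1 are also on the list of genes that most cell lines need, given further on. Their median change from start was −1.10 in DMSO of the HCC1806 palbociclib screen, −2.11 in DMSO 1 and −0.77 in DMSO 2. The corresponding medians over all guides of the library were −0.10, −0.87 and −0.12. The same 20 guides had a median of −0.10 in MIA PaCa-2 DMSO, where all guides stood at −0.05. Within the planned 1 Mb, 24 guides had medians of −0.87, −1.72 and −0.66 in the HCC1806 DMSO libraries in the same order. Their median in MIA PaCa-2 DMSO was −0.10. The lower median relative to all guides was thus present in all 3 untreated HCC1806 libraries, DMSO 1 included. In MIA PaCa-2 DMSO the median lay close to that of all guides, though more of the 20 guides than of all guides had a change of −1 or lower.

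The HCC1806 libraries grown with drug gave values of the same kind. The 20 guides had medians of −1.28 and −1.21 in INX-315 1 and INX-315 2, against −0.10 and −0.10 for all guides, and in palbociclib their median lay at −0.94 relative to that of all guides. In MIA PaCa-2 the medians were −0.37 with INX-315 and −0.19 with palbociclib, against −0.19 and −0.06 for all guides. All 6 passaged HCC1806 libraries lay below all 3 passaged MIA PaCa-2 libraries in this median. The drug libraries share their start libraries with the DMSO libraries and are not independent of them.

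Counts of guides with a change of −1 or lower gave the same order, while counts in the lowest 10.0% of each library did not. In DMSO of the HCC1806 palbociclib screen 11 of the 20 guides reached this level, against 20.2% of all guides. In DMSO 2 it was 9 of 20 against 19.3%, and in DMSO 1, where the whole library had shifted, 13 of 20 against 47.2%. In MIA PaCa-2 DMSO 5 of 20 guides reached it, against 12.7% of all guides. With drug, 12 and 11 of the 20 reached it in INX-315 1 and INX-315 2 of HCC1806, against 19.5% and 19.3% of all guides, and 10 in palbociclib, against 15.8%. In MIA PaCa-2 it was 4 with INX-315, against 22.3% of all guides, and 5 with palbociclib, against 12.4%. All 20 guides lay below the median of all guides in DMSO 2, 16 in DMSO of the palbociclib screen and 13 in DMSO 1, while 11 did in MIA PaCa-2 DMSO. The SD of the change over all guides was 1.23, 1.78 and 1.21 in DMSO of the palbociclib screen, DMSO 1 and DMSO 2 and 0.87 in MIA PaCa-2 DMSO, so a fixed level is not alike across libraries. In the lowest 10.0% of all guides lay 3, 4 and 6 of the 20 in the same HCC1806 libraries and 4 in MIA PaCa-2 DMSO. That count did not separate the lines.

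The direct difference between the lines, the mean of the 3 HCC1806 DMSO changes minus the MIA PaCa-2 DMSO change, had a median of −0.80 over the 20 guides, −0.41 over the other 195 guides of the region and −0.32 over all guides. Taken by library, the median difference over the 20 guides was −0.73 for DMSO of the palbociclib screen, −1.75 for DMSO 1 and −0.68 for DMSO 2, where all guides had −0.08, −0.76 and −0.09. The 20 guides were therefore below the shift of the whole library in each of the 3. Of the 20 guides 11 were lower in each of the 3 HCC1806 DMSO libraries than in MIA PaCa-2 DMSO, a pattern that 28.6% of all guides showed. Among the 1300 guides against olfactory receptor genes, which have no known use in these lines, 24.9% showed it. In all 6 passaged HCC1806 libraries against all 3 of MIA PaCa-2, 7 of the 20 guides were lower without overlap, against 8.79% of all guides.

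The planned distance was 1 Mb, and the 0.5 Mb used above was an alternative that gave a larger difference. At 1 Mb the 4 guides of ZNF536 are included, and 12 of 24 guides were lower in all 3 HCC1806 DMSO libraries, against 28.6% of all guides. The median difference between the lines was then −0.69, with an SD of 0.30 between the 3 HCC1806 DMSO libraries (n = 3). Centred on the olfactory receptor guides it was −0.47, and 10 of the 24 guides were lower in all 3 libraries, against 23.6% of all guides. Over the whole region 63 of 215 guides, or 29.3%, were lower in all 3 libraries, close to the 28.6% of all guides. Across the region at large the share was thus that of the whole library.

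Along the chromosome the lowest medians in HCC1806 DMSO lay in the bin that holds CCNE1. In that first bin of 1 Mb, from 30000000, the median change of 22 guides was −1.10, −1.96 and −0.73 in DMSO of the palbociclib screen, DMSO 1 and DMSO 2, and −0.15 in MIA PaCa-2 DMSO. In the next bin, from 31000000, the 6 guides of ZNF536 and TSHZ3 had medians of −0.32, −0.05 and 0.67 in the same HCC1806 libraries and −0.23 in MIA PaCa-2. The median difference between the lines went from −0.72 in the first bin to 0.19 in the second and −0.04 in the third, which holds the 8 guides of ZNF507 and DPY19L3. It was −0.50 over the 58 guides of the bin from 33000000, −0.03 over 34 guides of the bin from 34000000 and −0.47 over 87 guides of the last bin. Between the last guide of URI1 and the first guide of ZNF536 lies a gap of 432.4 kb with no guide, so nothing can be read within it. The differences rose and fell again along the bins, so no single turning position was established.

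Bins further out were not uniform in a single direction from library to library. In the bin from 33000000 DMSO of the palbociclib screen had −0.35, DMSO 1 −0.68 and DMSO 2 −0.22, while all guides had −0.10, −0.87 and −0.12. In the last bin the values were −0.11, −0.88 and −0.16, close to the medians of all guides in each library. Distance from CCNE1 and change from start had Spearman coefficients over the 215 guides of 0.16, 0.05 and 0.16 in these 3 libraries and 0.13 in MIA PaCa-2 DMSO, a description of guides that share libraries and targets. A gradual trend with distance was weak in both lines.

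URI1, which encodes an unconventional prefoldin that binds a subunit shared by the RNA polymerases, had the lowest difference between the lines among the 54 genes at the pseudocount of 0.5 CPM used here. Its mean change was −1.81 (SD 2.12 over 4 guides) in DMSO of the palbociclib screen, −2.26 (SD 2.28) in DMSO 1 and −1.11 (SD 0.82) in DMSO 2, against −0.14 (SD 0.80) in MIA PaCa-2 DMSO. It was −1.24, −1.20 and −1.74 in INX-315 1, INX-315 2 and palbociclib of HCC1806, and −0.02 and −0.18 in INX-315 and palbociclib of MIA PaCa-2. All 4 of its guides were lower in each HCC1806 DMSO library than in MIA PaCa-2 DMSO, which held for 2 of the 54 genes, URI1 and PDCD5, and for 2.73% of all genes, so the count is near the background. The difference of −1.58 lay at percentile 4.0 of all genes. With a pseudocount of 5 CPM it was −0.81 and that of USF2 was lower, at −0.85, and in the fit of gene sums given further on C19orf40 (−1.42), UBA2 (−1.39) and USF2 (−1.32) were lower than URI1 (−0.69).

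The 4 URI1 guides differed among themselves. The guide starting at 30476160 went from 442 counts at the start to 0 in DMSO of the palbociclib screen, from 403 to 3 in DMSO 1 and to 95 in DMSO 2, and in MIA PaCa-2 from 589 to 226. Its change of −4.87 in the library without a count is set by the added 0.5 CPM. The guide starting at 30500042 had 331 counts at the start of the INX-315 screen and 6 and 79 in DMSO 1 and DMSO 2, while in MIA PaCa-2 it went from 533 to 756. The guides starting at 30433451 and 30502070 differed between the lines by −0.48 and −0.68. The gene's low mean in HCC1806 thus rested mainly on a pair of its guides, with the other pair lower by a smaller amount.

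POP4, a protein subunit of RNase P and RNase MRP, which process transfer and ribosomal RNA, had mean changes of −1.47 (SD 1.95 over 4 guides), −1.76 (SD 1.20) and −2.56 (SD 1.32) in DMSO of the palbociclib screen, DMSO 1 and DMSO 2, and −0.72 (SD 1.17) in MIA PaCa-2 DMSO. The guide starting at 30101344 carried the largest loss. It had 1128 counts at the start of the INX-315 screen and 112, 32, 43 and 48 in DMSO 1, DMSO 2, INX-315 1 and INX-315 2. In the palbociclib screen it went from 1116 to 103 in DMSO and 167 in palbociclib, and in MIA PaCa-2 from 2197 to 1019 in DMSO, 1721 in INX-315 and 754 in palbociclib. The guide starting at 30102809 went the other way, with 673 counts at the start of MIA PaCa-2 and 148, 12 and 92 after passage, a larger loss than in HCC1806. POP4 was lower in both lines and its guides disagreed on which line lost more.

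VSTM2B, an immunoglobulin-domain membrane protein, had mean changes of −0.73, −2.37 and −0.68 in DMSO of the palbociclib screen, DMSO 1 and DMSO 2 and −0.34 in MIA PaCa-2 DMSO, with SDs over its 4 guides of 0.50, 2.31, 0.39 and 1.14. The guide starting at 30020907 separated the lines most. Its counts were 227 at the start and 100 after DMSO in the palbociclib screen, 287 at the start and 52 and 107 in DMSO 1 and DMSO 2, and 348 at the start and 713 after DMSO in MIA PaCa-2. The guide starting at 30018205 was lower after passage in both lines, going from 195 to 0 and 102 counts in the INX-315 screen and from 481 to 137 in MIA PaCa-2. Only 1 of its 4 guides was lower in all 3 HCC1806 DMSO libraries than in MIA PaCa-2.

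PLEKHF1, a lysosomal protein with PH and FYVE domains, had mean changes of −1.14 (SD 0.60 over 4 guides), −1.32 (SD 1.60) and −0.97 (SD 0.72) in the HCC1806 DMSO libraries in the same order and −0.45 (SD 1.00) in MIA PaCa-2 DMSO. All of its guides start between 30165072 and 30165210, and the positions of 1 neighbouring pair overlap. C19orf12, a mitochondrial membrane protein, had −0.18 (SD 0.54), −1.65 (SD 1.23) and −0.45 (SD 0.26) against −0.04 (SD 0.33) in MIA PaCa-2. Its value in DMSO of the palbociclib screen lay close to the median of all guides, so that its low mean over the DMSO libraries rested on DMSO 1. In the drug libraries it had −0.74 in palbociclib and −0.89 and −0.56 in INX-315 1 and INX-315 2.

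Beyond the gap the order of the lines differed between the HCC1806 libraries. ZNF536, a zinc finger repressor of the developing nervous system, had mean changes of −0.45, −0.61 and 0.32 in DMSO of the palbociclib screen, DMSO 1 and DMSO 2, against −0.34 in MIA PaCa-2 DMSO. The difference between the lines was 0.10 with an SD of 0.60 over its 4 guides. TSHZ3, a teashirt-type zinc finger transcription factor, had −1.06, −0.85 and 0.48 against −0.52, a difference of 0.05 with an SD of 0.67. Both genes thus lay below MIA PaCa-2 in DMSO of the palbociclib screen and in DMSO 1 and above it in DMSO 2, which brought their mean differences near 0. Both also had positive means in the INX-315 libraries of HCC1806, and −0.47 and −1.22 in its palbociclib library. TSHZ3 also held a guide with a change of −4.35 in MIA PaCa-2 with INX-315.

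Per-guide tests did not call a difference between the lines. edgeR's quasi-likelihood test over the 7 start and DMSO libraries, with Benjamini-Hochberg adjustment over 70360 guides, tested 214 of the 215 guides. The missing guide, of FXYD3, had fewer than 30 counts in a start library. For HCC1806 minus MIA PaCa-2 it called 0 guides of the region lower or higher, against 0% of all guides in each direction, and 0 of the region had an unadjusted p under 0.05, which 0.677% of all guides had as lower and 0.0867% as higher. DESeq2 called 0 of the region, and 48 lower and 8 higher over all guides. Counts were also simulated from the mean counts and totals of these libraries, with a spread between libraries that was set (dispersion 0.05). On these the edgeR test recovered 18 of 100 guides lowered by 2 on the log2 scale and 0 of 100 lowered by 1. The set spread was not taken from the data, so these rates do not give the power of the test here.

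Sums over the guides of each gene gave the same outcome, with 0 of 54 genes called by edgeR, 0 with an unadjusted p under 0.05 and 0% of all 18052 genes called in each direction. Over all genes 0.582% were lower and 0.0554% higher at that unadjusted p. The fitted difference for URI1 was −0.69 (SE 0.59, adjusted p = 1.00 by edgeR). For HCC1806 DMSO against start edgeR called 0 guides of the region, against 0% of all guides, while 9 were lower and 2 higher at an unadjusted p under 0.05, which 5.81% and 0.0995% of all guides were. DESeq2 called 10 lower and 1 higher, against 5.20% and 0.0284% of all guides. Leaving out DMSO 1 gave 5 lower guides by edgeR, against 3.67% of all guides, and leaving out DMSO 2 gave 6, against 3.45%.

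With all 6 passaged HCC1806 libraries against their start libraries, edgeR called 7 of 214 guides lower and 0 higher, against 4.16% of all guides lower and 0.0213% higher, and 18 were lower and 7 higher at an unadjusted p under 0.05, which 10.0% and 2.32% of all guides were. The share called lower was thus near the background. The guide nearest CCNE1 among them was the POP4 guide starting at 30101344, at −3.42 (SE 0.52, adjusted p = 0.0041 by edgeR). The others, of which NUDT19 and LSR are named here because they were called, were 1 guide each of PDCD5, NUDT19, RHPN2, GPATCH1, UBA2 and LSR. The count was 0 without the start library of the INX-315 screen, 1 without that of the palbociclib screen and 4 without INX-315 1, INX-315 2 or DMSO of the palbociclib screen, and it was 13 without DMSO 1. In the same fit the difference from MIA PaCa-2 was called for 0 guides of the region, against 0% of all, with 2 lower and 0 higher at an unadjusted p under 0.05, which 1.53% and 0.770% of all guides were. That of the POP4 guide was −2.81 (SE 1.07, adjusted p = 1 by edgeR).

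Genes of the region that most cell lines need formed a group of their own, listed from general knowledge with 9 of its 10 members in the region. Their 36 guides had median changes of −0.45, −1.55 and −0.70 in DMSO of the HCC1806 palbociclib screen, DMSO 1 and DMSO 2 and −0.64 in MIA PaCa-2 DMSO. In the lowest 10.0% of all guides of each library lay 10, 9 and 12 of the 36 in HCC1806 and 13 in MIA PaCa-2. In the fit over all passaged HCC1806 libraries 4 of the 36 were called lower by edgeR and 0 higher, against 4.16% and 0.0213% of all guides. They were 1 guide each of POP4, PDCD5, GPATCH1 and UBA2. Low medians of this group were present in both lines, at distances from CCNE1 of up to 4.6 Mb. The group holds POP4 and URI1, so it overlaps the 20 guides within 0.5 Mb of CCNE1.

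UBA2, a subunit of the enzyme that activates SUMO, had the lowest mean change of the region over the 3 HCC1806 DMSO libraries, with −3.10 (SD 1.98 over 4 guides), −4.49 (SD 0.29) and −2.58 (SD 1.39) in DMSO of the palbociclib screen, DMSO 1 and DMSO 2, and −1.87 (SD 0.92) in MIA PaCa-2 DMSO. PDCD5, a small protein that binds the chaperonin that folds tubulin and actin, had −3.14, −3.27 and −2.93 and in MIA PaCa-2 −2.05, the lowest there. PDCD5 was below UBA2 in DMSO of the palbociclib screen and in DMSO 2, so that the place of UBA2 came from DMSO 1. All 4 of its guides were lower in each HCC1806 DMSO library, and the difference of −1.07 had an SD of 0.44 over guides. GPATCH1, a G-patch protein linked to splicing, had −1.49, −1.90 and −1.31 against −0.94. These genes lie from 2.8 to 4.6 Mb from CCNE1 and were lower in both lines.

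GPI ran the opposite way. It encodes glucose-6-phosphate isomerase, the enzyme of the second step of glycolysis, and its mean change was 0.10 (SD 0.48 over 4 guides), −0.69 (SD 2.02) and −0.76 (SD 0.12) in the HCC1806 DMSO libraries in the same order, against −1.87 (SD 0.55) in MIA PaCa-2 DMSO. With INX-315 and palbociclib MIA PaCa-2 had −2.16 and −1.45. In HCC1806 the drug libraries had −0.78, −0.64 and −0.16 in INX-315 1, INX-315 2 and palbociclib. The difference of 1.41 lay at percentile 99.9 of all genes, and 3 of the 4 guides were higher in all 3 HCC1806 DMSO libraries, a pattern that 13.2% of all guides showed. The fitted difference of the gene sum was 2.07 (SE 0.92, adjusted p = 1.00 by edgeR).

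The remaining listed members stayed near the level of all guides. PDCD2L, which assists assembly of the small ribosomal subunit, had −0.13, −1.07 and 0.14 against −0.30 in MIA PaCa-2. LSM14A, a component of processing bodies, had 0.21, 0.02 and 0.06 against −0.25. CEBPG, a basic leucine zipper transcription factor of the amino acid stress response, had −0.03, −1.20 and −0.06 against 0.15. Among the DMSO libraries other than DMSO 1, this trio had no mean below −0.30.

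Genes known mainly from other tissues, such as the myelin protein MAG, the B cell receptor CD22, the liver hormone HAMP and the free fatty acid receptors FFAR1 and FFAR2, gave the region's background. The 88 guides of 22 such genes had median changes of −0.09, −0.77 and −0.18 in DMSO of the palbociclib screen, DMSO 1 and DMSO 2 and 0.03 in MIA PaCa-2 DMSO. In the lowest 10.0% lay 1, 7 and 0 of the 88 in HCC1806 and 3 in MIA PaCa-2. Their median difference between the lines was −0.47, and 25 of 88 guides, or 28.4%, were lower in all 3 HCC1806 DMSO libraries, at the level of the whole library. In edgeR's fit over all passaged HCC1806 libraries 0 of 88 were called in either direction, against the same 4.16% lower and 0.0213% higher, with 2 lower and 3 higher at an unadjusted p under 0.05.

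VSTM2B and ZNF536 belong to this group too and are its only members within 1 Mb of CCNE1. Their 8 guides, split off after the values were seen, had a median difference between the lines of −0.29, against −0.32 over all guides. Of the 8, 2 were lower in all 3 HCC1806 DMSO libraries, against 28.6% of all guides. Their median changes were −0.59, −1.23 and −0.40 in DMSO of the palbociclib screen, DMSO 1 and DMSO 2 and −0.31 in MIA PaCa-2 DMSO, each below that of all guides. The zinc finger genes of the region, 27 guides of 7 genes, had medians of 0.25, −0.86 and 0.08 in the same HCC1806 libraries and 0.06 in MIA PaCa-2, and 3 of 27 were lower in all 3 HCC1806 DMSO libraries, against 28.6% of all guides. edgeR called 0 of these 27 in the passaged fit, against 4.16% of all guides lower and 0.0213% higher, with 0 lower and 1 higher at an unadjusted p under 0.05. The highest means in MIA PaCa-2 DMSO were those of RGS9BP, an anchor of a retinal signalling protein, at 0.59, ZNF30 at 0.53, TDRD12, a germline protein of the piRNA pathway, at 0.48, and GRAMD1A, a sterol transfer protein, at 0.45.

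Genes far from CCNE1 had differences between the lines as large as those of its neighbours. After URI1 the lowest were UBA2 at −1.52, USF2 at −1.49, C19orf40 at −1.46, RHPN2 at −1.39, POP4 at −1.20, PDCD5 at −1.07 and VSTM2B at −0.92, and 5 of these 8 genes lie over 2 Mb from CCNE1. With a pseudocount of 5 CPM the values were closer to 0, with −0.81 for URI1, −0.40 for UBA2, −0.85 for USF2, −0.64 for C19orf40, −0.55 for RHPN2, −0.69 for POP4, −0.38 for PDCD5 and −0.40 for VSTM2B, so that the size and order depended on it. C19orf40, now named FAAP24, is a member of the Fanconi anaemia core complex and had −2.46, −2.97 and −1.42 in DMSO of the palbociclib screen, DMSO 1 and DMSO 2, against −0.82 in MIA PaCa-2. RHPN2 had −1.71, −2.09 and −0.92 against −0.18. Its guide starting at 33493202 was among the 7 called lower, at −4.10 (SE 0.65, adjusted p = 0.0050 by edgeR).

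USF2, an E-box transcription factor, had mean changes of −1.68, −1.57 and −0.65 in the HCC1806 DMSO libraries and 0.19 in MIA PaCa-2 DMSO. With INX-315 MIA PaCa-2 had −1.54, however, and over all passaged libraries the difference was −0.56 in place of −1.49. The highest differences after GPI were those of ANKRD27, an exchange factor for a Rab protein, at 0.83, and of FXYD5, a regulator of the sodium pump, at 0.66. ANKRD27 had −0.25, 1.51 and 0.30 in the HCC1806 libraries, so its place came from DMSO 1, and FXYD5 had 1.79, −0.11 and 0.38, so its place came from DMSO of the palbociclib screen. The next values were 0.35 for LSM14A, 0.24 for FXYD3, 0.17 for the dipeptidase gene PEPD, 0.12 for FAM187B and 0.10 for KCTD15.

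The neighbours also give a scale for the guides against CCNE1 itself. The 4 CCNE1 guides, which start between 30303605 and 30313192, had mean changes of −0.13 (SD 0.82 over 4 guides) in DMSO of the palbociclib screen, −2.18 (SD 1.58) in DMSO 1 and −0.85 (SD 0.76) in DMSO 2, and −0.38 (SD 0.97) in MIA PaCa-2 DMSO. In untreated HCC1806 they were thus no lower than URI1 in any of the 3 libraries. The 20 neighbouring guides had a median of −1.10 in DMSO of the palbociclib screen, below the −0.18 of the CCNE1 guides, and −2.11 and −0.77 in DMSO 1 and DMSO 2, near the −2.54 and −0.84 of the CCNE1 guides. Without drug the CCNE1 guides were thus not set apart from the neighbours by more than the spread between guides.

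Under palbociclib the guides against CCNE1 and those beside it parted. The log2 ratio of palbociclib to DMSO in HCC1806 had a median of −2.48 over the 4 CCNE1 guides, with a range from −2.78 to −1.59. Over the 20 guides within 0.5 Mb it had a median of 0.21 and a range from −1.50 to 1.00. These 20 did not overlap the CCNE1 guides, but the edges, −1.50 and −1.59, lay close together. Over all 215 guides of the region the lowest ratio was −1.73, inside the CCNE1 range. The share of all guides inside that range is not given. Of the 20, 2 had a ratio of −1 or lower, against 4.21% of all guides. Each arm was 1 library, so the ratio has no replicate check.

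MIA PaCa-2 gave a like separation under palbociclib, with a median of −2.18 over the CCNE1 guides and 0.10 over the 20 neighbours. The ranges overlapped there, from −2.33 to −0.78 against −1.66 to 1.49, and 2 of the 20 neighbours had a ratio of −1 or lower, against 2.40% of all guides. Over all 215 guides of the region the median ratio in HCC1806 was 0.03, as it was over all guides. In MIA PaCa-2 it was −0.09, against 0.00 over all guides. The guides beside CCNE1 therefore had no median ratio of the size seen for CCNE1 in either line.

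INX-315 against DMSO was read from pairs of libraries with the same number, although the number did not link them, as given in the last section. In HCC1806 the ratio of INX-315 2 to DMSO 2 had a median of −1.82 over the CCNE1 guides, with a range from −1.96 to −1.60, and −0.32 over the 20 neighbours, where all guides had 0.01. Of the 20 neighbours 3 had a ratio of −1 or lower, against 4.37% of all guides. In the pair with DMSO 1 the medians were −0.49 for CCNE1, 0.60 for the neighbours and 0.59 for all guides, and 4 of the 20 neighbours had a ratio of −1 or lower, against 16.2% of all guides. In MIA PaCa-2 they were −0.76, −0.12 and −0.08, with 4 of the 20 at −1 or lower against 18.3% of all guides.

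By gene, 4 of the 5 neighbours had ratios of opposite sign in the HCC1806 pairs. These ratios include the shift of all guides, with medians of 0.59 in the pair with DMSO 1 and 0.01 in the pair with DMSO 2. The share of all genes with opposite signs is not given. URI1 had ratios of 1.02 in the pair with DMSO 1 and −0.10 in the pair with DMSO 2, VSTM2B 1.00 and −0.73, C19orf12 0.76 and −0.12, and POP4 −0.09 and 0.39. PLEKHF1 had −0.04 and −0.41. edgeR called 0 of 214 guides of the region between INX-315 and DMSO in HCC1806, against 0% of all guides in each direction, with 3 lower and 0 higher at an unadjusted p under 0.05, which 1.96% and 0.371% of all guides were. DESeq2 called 3 of the region lower, and 315 lower over the library. It gave an adjusted p to only 3518 guides, of which the 315 were 8.95%. How many guides of the region were among the 3518 is not given here. Without DMSO 1 edgeR called 14 lower and 9 higher, against 5.31% and 3.78% of all guides. Without DMSO 2 it called 77 lower and 77 higher, against 33.1% and 36.0% of all guides, so that the region was near the level of the whole library. Each of these fits had a lone DMSO library assumed to vary like the INX-315 pair. The number of guides called under INX-315 thus depended on which DMSO library was kept.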

How the data were processed

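Per the labels and methods, the authors amplified guides from genomic DNA in 2 PCR steps and sequenced them. Trim Galore 0.6.7 removed the adapters, and MAGeCK, version 5.9 by the labels, gave the counts. The deposited raw tables hold counts per guide. The signal values of the deposited normalized tables are the same counts times a factor per library and served as an alternative. The labels call the molecule total RNA, and they give other passage numbers and, for palbociclib, another unit of dose than the methods; the doses of the protocol were used. Each of the 12 columns was tied to its sample through the labels, and 52 of 54 gene symbols matched the reference annotation directly and 2 as older symbols.

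Changes used CPM plus 0.5 and are compressed for low guides. The start libraries' 30-count minimum applied to the fits, which used edgeR 4.0.16 in R 4.3.3 (quasi-likelihood test on TMM factors, with limma 3.58.1) and screen as a term, DESeq2 1.42.0 as an alternative, and Python 3.11.15 (numpy 2.4.6, pandas 2.3.3). A call is an adjusted p under 0.05. The line difference was tested on simulated data with the set spread given above, which gave 1 false call among the guides left unchanged. That spread was not taken from the data, so this is not the rate of false calls here. The 2 HCC1806 INX-315 screen libraries of an arm and the HCC1806 screens were taken as replicates. No source says that they came from separate infections, so p-values measure only the spread between libraries, which may be technical. MIA PaCa-2 has 1 library per arm, and its spread is taken from HCC1806.

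The members and gene lists were chosen with earlier results of these data known. Named genes are all within 2 Mb of CCNE1, the broadly needed list, the 8 lowest and 8 highest line differences, the 4 lowest and 4 highest genes in each line, and CCNE1. Of the listed broadly needed, tissue-restricted and zinc finger genes, 9 of 10, 22 of 27 and 7 of 8 lie among the members. Guide sequences are not shown because the files used hold only guide names. Of the 54 genes, 13 have overlapping neighbouring guides. The alternatives were other pseudocounts, filters, scalings, summaries and distances, the normalized tables, a replicate block, and each HCC1806 library left out.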

Additional observations from a re-analysis of the deposited data

Results flagged for a closer look

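For 3 named genes, every untreated HCC1806 library moved from its start in the opposite direction to the MIA PaCa-2 DMSO library, both in CPM and after centring on the olfactory receptor guides. They are USF2, with a difference between the lines of −1.49 on the log2 scale, CEBPG with −0.58 and LSM14A with 0.35. Only the 27 named genes were searched, and USF2 and LSM14A are among those named for the lowest or highest line differences. That choice favours opposite directions, and the share of all genes with this pattern is not given. Some changes were small, such as 0.02 for LSM14A in DMSO 1 and −0.03 for CEBPG in DMSO of the palbociclib screen. MIA PaCa-2 is a single library, and the opposite directions themselves were not tested. In edgeR's fit of gene sums the difference was −1.32 for USF2 (SE 0.89), −0.21 for CEBPG (SE 0.70) and 1.00 for LSM14A (SE 1.02), each with an adjusted p of 1.00. No group had the 4 libraries that a test for an outlying library needs.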

How the results depend on the processing

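Of 149 alternative values of the comparisons, 129 stayed within 1.5 times a count or within the SD between libraries of a median. The palbociclib ratios, which have no replicates, were judged by a fixed limit instead. Many of the 129 were counts of 0 that stayed 0, in fits that called no or few guides of the whole library. The total thus says little about how stable the counts above 0 were. The line difference was called for 0 guides or genes of the region under every alternative run. For HCC1806 DMSO against start, DESeq2 called 10 lower and 1 higher, against 5.20% and 0.0284% of all guides, and leaving out a library gave 0 to 6 lower, against up to 3.67%. For all passaged HCC1806 libraries against start, scaling on olfactory receptor guides gave 11 lower, against 6.26% of all guides, and leaving out a library gave 0 to 13 lower and 0 to 4 higher, the highest of each without DMSO 1, where 8.09% and 1.52% of all guides were called. For INX-315 against DMSO, DESeq2 called 3 guides of the region lower, and 315 lower over the library. Only 3518 guides had an adjusted p in that test, and the 315 were 8.95% of these. For the same comparison, leaving out a library gave 0 to 77 lower and 0 to 77 higher. The highest of each came without DMSO 2, a fit with a lone DMSO library, where 33.1% and 36.0% of all guides were called. With the replicate number as a block the INX-315 comparison called 0 guides of the region lower and 0 higher. The numbers share only a name there, since deviations of same-numbered libraries correlated at −0.0082 over guides. The median line difference within 1 Mb of CCNE1, −0.69, became −0.39 with a pseudocount of 5 CPM. Its excess over the other guides of the region, −0.28, became −0.47 with the normalized tables and −0.52 as a mean over guides. Chosen after seeing the data, leaving out an HCC1806 DMSO library gave 13 to 14 of 24 such guides lower than in MIA PaCa-2 in both remaining libraries, against 36.4% to 40.4% of all guides. Of 54 alternative values of the named genes, 41 stayed within the SD between libraries. With a pseudocount of 5 CPM URI1 (−0.81), UBA2 (−0.40), USF2 (−0.85), C19orf40 (−0.64), RHPN2 (−0.55) and PDCD5 (−0.38) were among those that did not. Of the 27 named genes, PDCD2L changed sign on centring, from −0.06 to 0.16. Single libraries in MIA PaCa-2 and the unlike pair of DMSO libraries limit what can be tested here.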
